A study of Mus musculus with 6 samples.

Results

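The ESCRT genes encode the machinery that takes ubiquitinated receptors such as EGFR off the surface of the endosome and into its lumen. The 32 genes described here were taken from a written list of the subunits ESCRT-0, ESCRT-I, ESCRT-II, ESCRT-III and VPS4, with the Bro1 proteins and deubiquitinases that work beside them. The list was proposed with earlier results of these data known. It therefore gets no test of its own, and its shares and medians beside those of all genes are a description. Each was read through the array probe set that names that gene alone, and where more than 1 did, through the brightest by its mean on the 6 arrays. All 32 were measured, out of 30142 genes in the series, and on 6 of 6 arrays each was brighter than the median negative control. The negative controls spread widely, with a 95th percentile of 7.46 to 8.07 on the arrays, and many members read below that.

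Epidermal RNA of mouse embryos at stage E18.5 was hybridised to 6 arrays, 3 for Rptor cKO and 3 for wild-type littermates, which the series text calls biological replicates. Rptor encodes Raptor, the subunit that presents substrates to the growth kinase mTORC1, and cKO is a conditional knockout. The sources used here do not give the Cre line, the deleted exons or any allele that the littermates carried. The title of the series names EGFR degradation and lysosome formation as its subject, and the genes below act between the receptor and the lysosome. Every difference below is a log2 value, negative where Rptor cKO was the lower, and the number of arrays limits the precision.

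In this pathway ESCRT-0 binds ubiquitin on the receptor and holds it on the endosome. ESCRT-I and ESCRT-II gather the cargo and bend the membrane, and ESCRT-III, built from CHMP proteins, forms filaments that cut the bud off into the lumen. The ATPase VPS4 takes the filaments apart, and the multivesicular body that results fuses with the lysosome, where receptor and ligand are degraded. ESCRT-III and VPS4 also act at the midbody, the nuclear envelope and the wounded plasma membrane, so their RNA level is not a measure of receptor sorting alone.

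Rptor itself read 6.54, 6.82 and 6.72 on Rptor cKO arrays 1 to 3 and 6.98, 7.46 and 7.0 on wild-type arrays 4 to 6. The groups did not overlap, but the difference of -0.46 (SE 0.15) missed the threshold (limma adjusted p = 0.099). Whether its probes lie in the deleted part is not known. Xist and the Y-linked genes read Rptor cKO arrays 1 and 3 as female and the other 4 as male. The keratins of epidermis were bright on every array, with Krt5 at 11.93 or more and Krt10 at 10.54 or more.

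ESCRT RNA was lower in Rptor cKO epidermis, and part of the genes passed the threshold. Of the 32 genes, 11 fell and 0 rose at an adjusted p under 0.05 in limma, and 21 did not pass. The genes that fell make up 34.4% of the members, against 5.95% of all genes tested that fell and 3.63% that rose. Among the 20608 genes whose mean in either group was above the negative control median, 9.14% fell, and 12 of the 32 fell in that fit. That cutoff, 3.89, lies below the array medians of 4.06 to 4.21, so many dim genes remain. The shares over all genes, here and below, are not shares over genes of like level. The part of brightness in these contrasts was not tested. At an unadjusted p under 0.05, 20 members were lower and 1, Mvb12b, was higher, against 11.4% of all genes lower and 11.9% higher. With array medians subtracted, 6.06% of all genes fell and 1.94% rose, and 9 members fell. The median difference of the members was -0.33, against 0.05 over all genes, and 29 members had a value below 0. By subcomplex the median was -0.135 in ESCRT-0, -0.315 in ESCRT-I, -0.486 in ESCRT-II, -0.447 in ESCRT-III and -0.216 in VPS4. It was -0.386 for the Bro1 proteins and deubiquitinases. ESCRT-II, with no gene past the threshold, was thus about as low as ESCRT-III. Gene spans below are on build GRCm38.p6. The falls were modest, from 1.34-fold for Usp8 to 3.00-fold for Chmp4c.

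Rptor cKO lay below wild type without overlap for 19 members and above it for 2, while 11 overlapped. Over all genes the shares without overlap were 12.5% below and 16.5% above. As a distance from the wild-type mean, the median over the members was -0.377, -0.417 and -0.255 on Rptor cKO arrays 1, 2 and 3. On the wild-type arrays it lay between -0.023 and 0.018. All 3 Rptor cKO arrays were thus low, with array 3 the nearest to wild type. Only 4 members passed without Rptor cKO array 1 (Vps28, Chmp2b, Chmp5 and Stambp) and 5 without wild-type array 6. Of all genes, 3.69% and 3.89% fell in those fits. None passed without Rptor cKO array 2, where 612 of all genes fell in place of 1793, and the median was -0.28. At an unadjusted p under 0.05, 16 members were lower in that fit, against 9.33% of all genes. None passed with embryo sex as a term, a fit that sets Rptor cKO array 2 alone against wild type, where 440 of all genes fell. At an unadjusted p under 0.05 it had 14 members lower, against 8.23% of all genes. None passed without variance moderation, where 2 of all genes fell, and 15 members were lower at an unadjusted p under 0.05, against 8.84% of all genes.

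**Figure D1:**
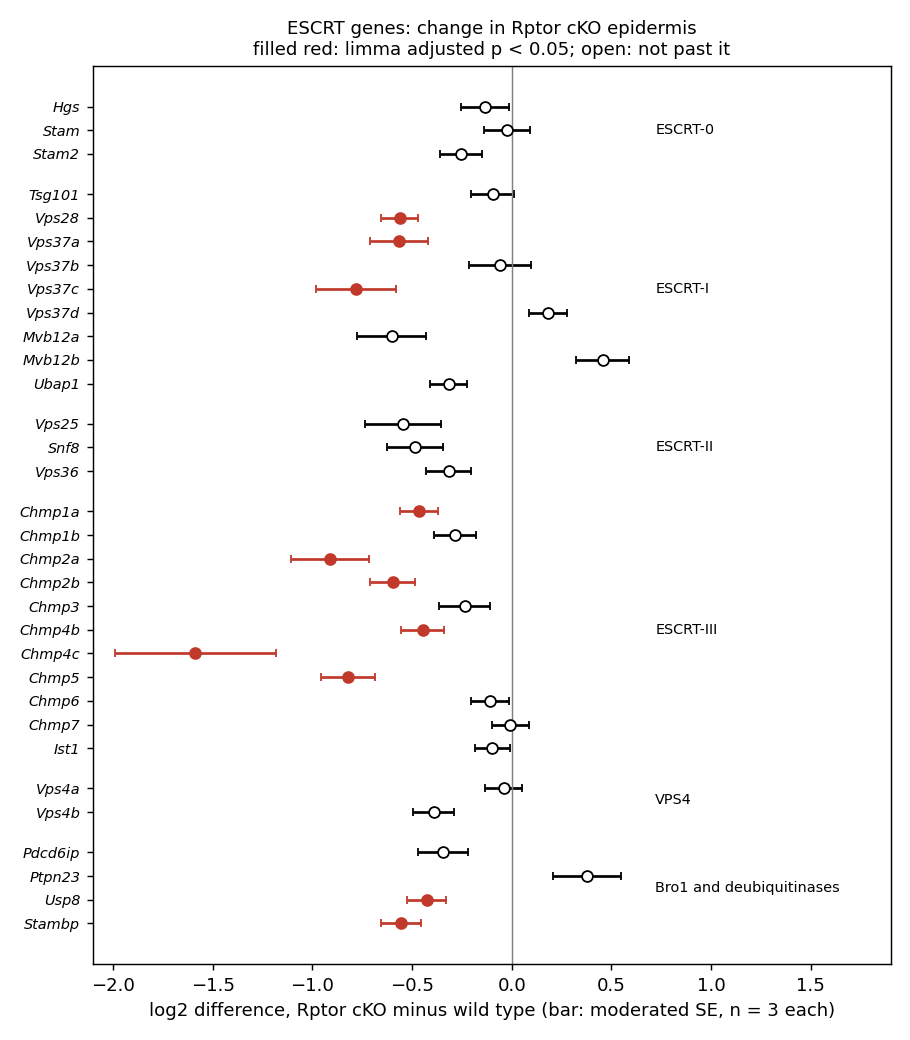
Log2 difference between Rptor cKO and wild type for each of the 32 ESCRT genes, grouped by subcomplex, with the moderated standard error as the bar (3 arrays a group). The 11 filled points, all below 0, passed the threshold, 6 of them in ESCRT-III and 3 in ESCRT-I.

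ESCRT-0, which captures the ubiquitinated receptor, held no change past the threshold among its 3 genes. Hgs, the subunit HRS that binds both ubiquitin and the endosomal lipid PI3P, differed by -0.14 (SE 0.12, adjusted p = 0.561). Stam, its partner with a ubiquitin-binding domain, differed by -0.026 (SE 0.12). Stam2, the closest relative of Stam, had the smallest p of the 3. Its values were 6.80, 6.80 and 6.94 in Rptor cKO and 7.26, 7.0 and 7.04 in wild type. The groups did not overlap, and the difference was -0.25 (SE 0.10, adjusted p = 0.182).

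ESCRT-I is a rod built from TSG101, VPS28, a VPS37 protein and either an MVB12 protein or UBAP1, and its genes differed among themselves. Vps28, Vps37a and Vps37c fell, while the central subunit Tsg101 differed by -0.094 (SE 0.11, adjusted p = 0.663). Vps28 (chr15:76622086-76626084), whose product links ESCRT-I to ESCRT-II, read 8.64, 8.61 and 8.81 in Rptor cKO against 9.23, 9.23 and 9.28 in wild type. That gap is wide beside the spread within either group (8.69 ± 0.11 against 9.25 ± 0.031, SD, n = 3). The fall was 1.48-fold (-0.56, SE 0.092, adjusted p = 0.00924).

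The 4 VPS37 genes, which encode versions of the same subunit, did not all pass. Vps37a (chr8:40511742-40551134), whose product works with UBAP1 on endosomes, read 5.54, 5.32 and 5.49 in Rptor cKO and 6.03, 5.72 and 6.29 in wild type. It fell 1.48-fold (-0.56, SE 0.15, adjusted p = 0.0479), just inside the threshold. Vps37c (chr19:10688735-10714628) read 6.63, 7.04 and 7.25 in Rptor cKO and 7.55, 8.14 and 7.58 in wild type. It fell 1.72-fold (-0.78, SE 0.20, adjusted p = 0.0473), and Rptor cKO array 1 and wild-type array 5 were the extremes. Vps37b differed by -0.059 (SE 0.15), and its groups overlapped. Vps37d differed by 0.18 (SE 0.094, adjusted p = 0.291), with the Rptor cKO arrays at 6.96 to 7.15 just above the wild-type arrays at 6.84 to 6.95.

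The last position of ESCRT-I showed differences of both signs, none past the threshold in the fit on the deposited values. Mvb12a read 6.88, 7.47 and 7.57 in Rptor cKO and 7.90, 8.0 and 7.82 in wild type, a difference of -0.60 (SE 0.17, adjusted p = 0.0689). Mvb12b read 7.0, 7.27 and 7.27 against 6.49, 6.91 and 6.77, a difference of 0.46 (SE 0.13, adjusted p = 0.0732). The arrays of the groups did not overlap for either gene, in opposite directions. Ubap1, whose product marks the form of ESCRT-I that serves endosomal sorting of receptors such as EGFR, differed by -0.32 (SE 0.093, adjusted p = 0.0746). Its values were 7.60, 7.44 and 7.57 against 7.92, 7.85 and 7.77, and with array medians subtracted it passed (-0.39, adjusted p = 0.0376). That was 1 of 13 alternative fits, and its adjusted p reached 0.254 without Rptor cKO array 2.

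ESCRT-II, which joins ESCRT-I to the filament, had 3 genes with values below 0 and none past the threshold. Snf8, also called VPS22, had the smallest p, with 7.28, 7.68 and 7.83 in Rptor cKO and 8.01, 8.13 and 8.10 in wild type (-0.49, SE 0.14, adjusted p = 0.0706). Vps25, which contacts CHMP6, differed by -0.54 (SE 0.19, adjusted p = 0.127), and its Rptor cKO arrays were spread from 7.77 to 8.58. Vps36, the ubiquitin- and lipid-binding subunit, differed by -0.32 (SE 0.11, adjusted p = 0.136). Rptor cKO array 1 was the lowest for Snf8 and Vps25. Without Rptor cKO array 3 both passed the test, as did Mvb12a (adjusted p = 0.0413, 0.0296 and 0.0468). Without Rptor cKO array 1 the differences shrank to -0.33 for Snf8, -0.34 for Vps25 and -0.39 for Mvb12a (adjusted p = 0.132, 0.266 and 0.0851).

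ESCRT-III held the most falls, 6 of its 11 genes (54.5%, against 5.95% of all genes), and all 11 differences were below 0. Chmp2a and Chmp2b, whose products cap the filament and recruit VPS4, both fell. Chmp2a (chr7:13032006-13034777) read 8.38, 8.68 and 9.04 in Rptor cKO against 9.97, 9.41 and 9.46 in wild type, a 1.88-fold fall (-0.91, SE 0.20, adjusted p = 0.025). Chmp2b (chr16:65539128-65562762) read 5.83, 5.81 and 6.04 against 6.66, 6.36 and 6.45, a 1.51-fold fall (-0.60, SE 0.11, adjusted p = 0.0156). In both genes wild-type array 4 was the highest of all and Rptor cKO array 3 the highest of its group.

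Chmp4b and Chmp4c encode forms of the subunit that makes up most of the filament. Chmp4b (chr2:154657026-154694783), the form in general use, read 6.88, 6.98 and 7.03 in Rptor cKO and 7.57, 7.26 and 7.39 in wild type. It fell 1.36-fold (-0.45, SE 0.11, adjusted p = 0.0354). Chmp4c (chr3:10366973-10391005), known for delaying the final cut of cell division, read 5.5, 5.17 and 5.78 in Rptor cKO and 8.15, 6.55 and 6.50 in wild type. This was the largest fall of the 32, 3.00-fold (-1.59, SE 0.40, adjusted p = 0.0454). Wild-type array 4 stood far above its fellows, and the SD of wild type, 0.94, was the largest of any member, the next being 0.34. Without that array the fall was -1.04 (adjusted p = 0.0112), and over the 13 alternatives it ran from -1.90 to -1.04 with adjusted p from 0.0112 to 0.26.

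Chmp5 (chr4:40948553-40965302), which binds the VPS4 cofactor LIP5, read 6.37, 6.17 and 6.47 in Rptor cKO and 7.29, 6.90 and 7.29 in wild type. The fall was 1.76-fold (-0.82, SE 0.14, adjusted p = 0.00952). Chmp1a (chr8:123204261-123212788), a late subunit that binds VPS4, read 6.02, 6.01 and 6.10 against 6.64, 6.49 and 6.40, a 1.38-fold fall (-0.46, SE 0.096, adjusted p = 0.0214). The rest of ESCRT-III did not pass. Chmp1b differed by -0.28 (SE 0.11), Chmp3 by -0.24 (SE 0.13), Chmp6, which starts the filament on ESCRT-II, by -0.11 (SE 0.096), and Ist1 by -0.097 (SE 0.088). Chmp7, which acts at the nuclear envelope, differed by -0.0069 (SE 0.093, adjusted p = 0.977), and its sign turned in some fits.

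**Figure D2:**
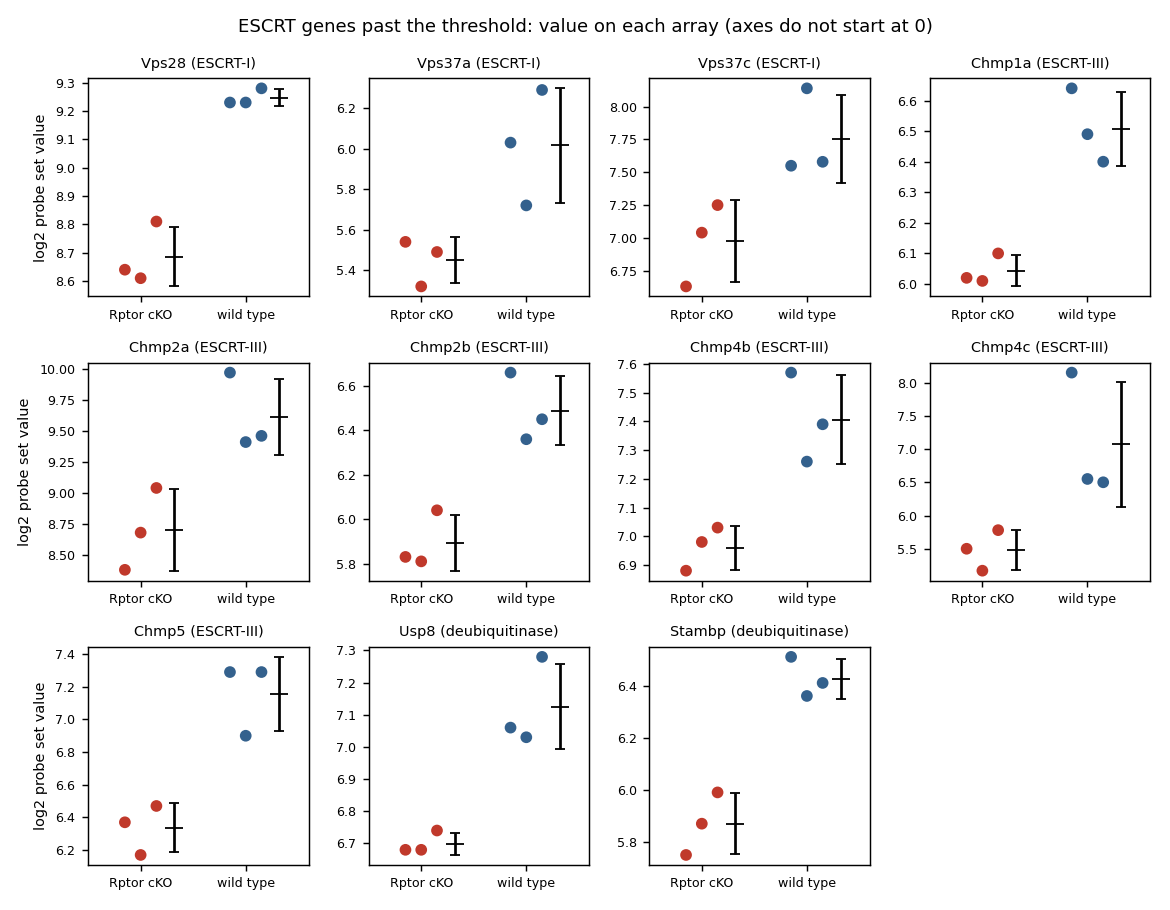
Log2 probe set values on each array for the 11 ESCRT genes past the threshold, with the mean and SD of each group beside the points. In each panel the 3 Rptor cKO arrays lie below the 3 wild-type arrays, and wild-type array 4 stands apart for Chmp4c.

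The VPS4 ATPases, which disassemble the filament, were close to the threshold in 1 of 2 genes. Vps4b read 6.48, 6.41 and 6.59 in Rptor cKO and 6.85, 6.78 and 7.03 in wild type, and the difference of -0.39 (SE 0.10, adjusted p = 0.0503) missed the threshold by little. It passed in the fit without dim probe sets (adjusted p = 0.0491) and after quantile normalization (adjusted p = 0.0418). Those were 2 of 13 alternative fits, and its adjusted p reached 0.188 without Rptor cKO array 2. Vps4a read 6.55, 6.67 and 6.63 against 6.56, 6.65 and 6.77, a difference of -0.040 (SE 0.094, adjusted p = 0.846).

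Both deubiquitinases among the 32 genes fell. Usp9x, Usp2 and Stambpl1, deubiquitinases of the lists below, did not pass (-0.21, -1.06 and -0.19, with adjusted p of 0.503, 0.093 and 0.273). The difference of Usp2 was larger than that of either gene that fell. For Usp2 and Stambpl1, too, Rptor cKO lay below wild type without overlap, so the threshold does not set these genes apart. Usp8 (chr2:126707201-126759314), which removes ubiquitin from EGFR and protects ESCRT-0, read 6.68, 6.68 and 6.74 in Rptor cKO and 7.06, 7.03 and 7.28 in wild type. It fell 1.34-fold (-0.43, SE 0.098, adjusted p = 0.0305). Stambp (chr6:83543206-83575826), or AMSH, which cuts ubiquitin chains off endosomal cargo, read 5.75, 5.87 and 5.99 against 6.51, 6.36 and 6.41. It fell 1.47-fold (-0.55, SE 0.098, adjusted p = 0.0119), and its highest Rptor cKO array, 5.99, lay well under its lowest wild-type array, 6.36.

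The Bro1 proteins, which bridge cargo to CHMP4, differed in sign and neither passed. Pdcd6ip, or ALIX, read 7.59, 7.55 and 7.82 in Rptor cKO and 8.14, 7.79 and 8.07 in wild type (-0.35, SE 0.12, adjusted p = 0.135). Ptpn23, or HD-PTP, which links EGFR sorting from ESCRT-0 to ESCRT-III, read 7.49, 7.85 and 7.85 against 7.06, 7.68 and 7.31 (0.38, SE 0.17, adjusted p = 0.227). Wild-type array 5 overlapped the Rptor cKO arrays in both.

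**Figure D3:**
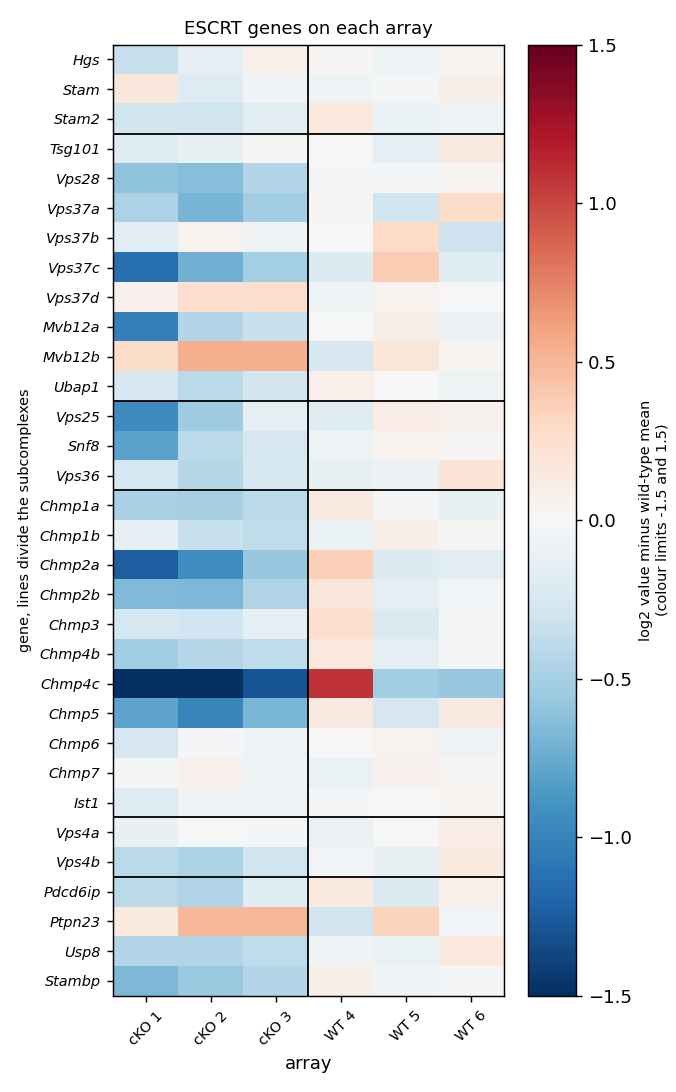
Log2 value of each ESCRT gene on each array minus the mean of the 3 wild-type arrays, with lines between the subcomplexes and colour limits at -1.5 and 1.5. Most rows of ESCRT-III are blue on the 3 Rptor cKO arrays, whereas Mvb12b, Ptpn23 and Vps37d are red.

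Several members are versions of the same subunit, and 13 pairs of related genes were compared by their log2 ratio within each array. The zero of such a ratio has no meaning, since different probes are not comparable. Its difference between groups describes the signals of both probe sets, and unequal change of the RNA is not shown by it. The groups did not overlap for 8 of the 13 pairs, a count with no share over other gene pairs to set it against, from which nothing is read. Each of those 8 had the smallest exact permutation p that 3 against 3 arrays allow, 0.1 (two-sided), and p = 0.162 after Benjamini-Hochberg adjustment over the pairs, so no pair could pass. The 6 pairs among the VPS37 genes share members and do not count separately.

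The values of the pairs are given as a description, since no pair could pass. The log2 ratio of Mvb12a to Mvb12b was -0.12, 0.20 and 0.29 on the Rptor cKO arrays and 1.41, 1.09 and 1.05 on the wild-type arrays. Its difference was -1.06 (SE 0.17). The ratio of Vps4a to Vps4b was 0.07, 0.27 and 0.04 against -0.29, -0.13 and -0.26, a difference of 0.35 (SE 0.087). Among the VPS37 genes, the ratio of Vps37c to Vps37d differed by -0.97 (SE 0.21) and that of Vps37b to Vps37c by 0.72 (SE 0.18). The ratio of Vps37a to Vps37d differed by -0.75 (SE 0.21, exact permutation p = 0.1). That of Vps37a to Vps37c differed by 0.22 (SE 0.41, exact permutation p = 0.8), and its groups overlapped.

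The ratio of Chmp4b to Chmp4c differed by 1.14 (SE 0.49), and by 0.68 without wild-type array 4. Chmp2a against Chmp2b differed by -0.32 (SE 0.16), with the nearest arrays of both groups at 3.00 and 3.02, and by -0.19 without Rptor cKO array 1. The ratio of Pdcd6ip to Ptpn23 differed by -0.72 (SE 0.31), and the nearest arrays of the groups both read 0.11 after rounding. In the 5 pairs that overlapped, Stam against Stam2, Chmp1a against Chmp1b, and Vps37a against Vps37b among them, the differences were 0.23 (SE 0.17), -0.18 (SE 0.15) and -0.51 (SE 0.36). With 1 array left out these ran from 0.11 to 0.31, from -0.26 to -0.067 and from -0.80 to -0.22.

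**Figure D4:**
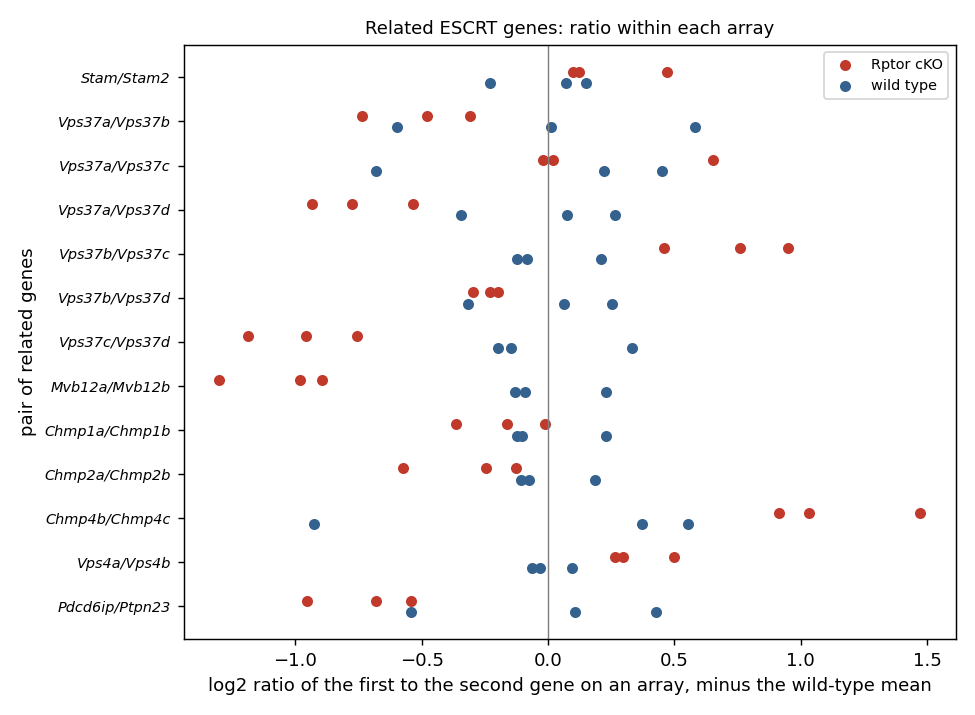
Log2 ratio of the first to the second gene of each pair on each array, minus the wild-type mean of that ratio, for 13 pairs. Rptor cKO and wild-type points are apart for 8 pairs, with Mvb12a/Mvb12b about 1.06 lower in Rptor cKO and Vps4a/Vps4b 0.35 higher.

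The start regions of the genes were searched for short motifs, since the MiT/TFE factors named in the title of the series bind the sequence TCACGTGA and relatives of it. RefSeq windows of build GRCm38.p6, from 250 bases before the start of a transcript to 50 after it, were at hand for 24 of the 32 genes in 26 windows. The motif TCACGTGA, its part TCACGTG and the core CACGTG were read on both strands, each holding the next. Among the members only Pdcd6ip held any of them. That is 3.85% of 26 windows, against 0.974% for TCACGTGA, 3.77% for TCACGTG and 7.15% for CACGTG among all 32851 windows. No window of the 8 genes that fell and had one held the core, which says only that these letters are not in these windows.

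Other motifs were chosen after the values were seen, and did not share bases with each other or with the core in the member windows. CCGGAAG, the core bound by ETS factors, was in 8 of 26 windows (30.8%, against 8.86% of all). They were those of Chmp1a, Chmp5 and Usp8, which fell, and of Chmp3, Pdcd6ip, Ptpn23, Tsg101 and Vps25, which did not pass. CCGCCC, a GC box, was in 61.5% against 35.7%, CCAAT in 26.9% against 37.4%, and TATAAA in 1 window, of Vps37c (3.85% against 13.6%). The member windows were rich in CpG, with a median of 23 against 7, and 24 of 26 above that median. Such windows were set against all genes, not against genes of like level. The 3 stretches below, 5′ to 3′ on the strand of the gene and ending before its outermost annotated base, show the motif of Pdcd6ip and those of Chmp5 and Usp8, with the motif in capitals. They lie at chr9:113708280-113708348 on the minus strand, chr4:40948397-40948503 on the plus strand and chr2:126707110-126707200 on the plus strand.
Pdcd6ip: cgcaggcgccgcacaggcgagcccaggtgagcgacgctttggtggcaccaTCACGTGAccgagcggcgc
Chmp5: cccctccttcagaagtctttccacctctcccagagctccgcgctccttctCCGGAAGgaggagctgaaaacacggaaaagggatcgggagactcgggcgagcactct
Usp8: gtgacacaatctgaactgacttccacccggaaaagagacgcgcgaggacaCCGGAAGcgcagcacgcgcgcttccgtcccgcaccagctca

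Pdcd6ip was not among the genes that fell (-0.35, limma adjusted p = 0.135). Its MiT/TFE motif lies 39 to 32 bases before the start of the transcript used for its window. That start is inside the annotated span of the gene, so the motif is nearer to the outermost annotated base.

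Other genes of the route from the receptor to the multivesicular body were measured in 3 lists, 65 genes in all. Of these 13 fell and 0 rose, 20.0% against the 5.95% of all genes that fell, with a median of -0.20. Leaving out Rptor cKO array 1 left 8 that fell, leaving out Rptor cKO array 2 left 2, and leaving out wild-type array 6 left 7, with 3 that rose. Of all genes, 3.69%, 2.03% and 3.89% fell in these fits, and 2.82% rose in the last. At an adjusted p of 0.0514 Tom1l1, a relative of the ESCRT-0-like adaptor Tom1, was the nearest to a rise (0.59, SE 0.16). Among 25 partners of ESCRT, 5 fell, 20% against the same 5.95%. Tom1l2 (-0.97, SE 0.15), Ndfip1, an adaptor of NEDD4 ubiquitin ligases (-0.78, SE 0.12), and Tom1, which binds ubiquitinated cargo (-1.39, SE 0.26), had the smallest p. Tom1 read 7.70, 7.97 and 8.70 in Rptor cKO and 9.89, 9.36 and 9.31 in wild type, so it fell 2.63-fold with no overlap. The arrestin-like adaptors Arrdc3 and Arrdc4 completed the 5, at -1.31 and -0.83.

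Of 16 measured genes of cargo ubiquitination, which are ligases, deubiquitinases and their adaptors or scaffolds, 2 fell. That is 12.5%, against 5.95% of all genes, and nothing is read from a share that rests on 2 genes. Rnf11, a partner of the ligase ITCH, read 5.81, 5.83 and 6.05 against 8.09, 6.91 and 6.93 (-1.41, SE 0.29), and wild-type array 4 was again the highest. Sh3kbp1, or CIN85, the scaffold that ties the ligase CBL to endocytosis, fell by 1.03 (SE 0.19). The ligases of EGFR did not pass, with Cbl at 0.26 (SE 0.20), Cblb at 0.048 (SE 0.18) and Cblc at -0.34 (SE 0.16), named after their values were seen. The genes that encode ubiquitin had no probe set of their own here and were not analysed.

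Of 24 genes of endocytosis and the early endosome, 6 fell, 25% against 5.95% of all genes. Cltb, a clathrin light chain, read 7.58, 7.60 and 7.96 in Rptor cKO and 9.18, 8.57 and 8.62 in wild type (-1.07, SE 0.18). Rabgef1, or Rabex-5, which activates RAB5 on early endosomes, also fell (-1.07, SE 0.21), and so did Epn3, an epsin of the surface (-1.14, SE 0.26). Rab5a and Rab5b (-0.71 and -0.57) and Zfyve16, an endosomal FYVE protein (-0.51), were the others.

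The markers of epidermal layers and of other cells moved with the genotype too. Beside their counts stand the 5.95% of all genes that fell and the 3.63% that rose. All 6 suprabasal markers fell, with a median of -1.99, and their summed linear signal was 4120 to 11806 in Rptor cKO and 20425 to 27300 in wild type. Their median distance from the wild-type mean was -2.24, -2.456 and -1.062 on Rptor cKO arrays 1, 2 and 3, so that array 3 was again the nearest to wild type. Of 6 basal markers 1 rose and 0 fell, with summed signals of 6726 to 8578 and 6759 to 7739. In bulk tissue, fewer cells of a type and less RNA per cell cannot be told apart, and the part of the layers in the ESCRT values was not tested.

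Among fibroblast markers 4 of 6 measured rose, with summed signals of 703 to 919 in Rptor cKO and 422 to 461 in wild type, and 1 of them, Lum, was not above the negative control median on 2 of 6 arrays. Of 6 immune markers 3 fell (158 to 191 against 215 to 266), 1 of which, Ptprc, was above the negative control median on 2 of 6 arrays, and of 3 Merkel cell markers 1 fell (64 to 69 against 83 to 96). Of 5 endothelial markers 1, Pecam1, rose (79 to 91 against 67 to 82), above that median on 5 arrays, and Kdr and Tek lay under the negative control median on every array. No marker passed among 5 of melanocytes (1190 to 1881 against 803 to 1355), 3 of adipocytes (64 to 79 against 65 to 80), 2 of muscle (49 to 68 against 40 to 54) and 1 of erythroid cells (35 to 48 against 32 to 43). Over all genes the shares were 5.95% for falls and 3.63% for rises. The part of these cells in the ESCRT values was not tested.

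**Figure D5:**
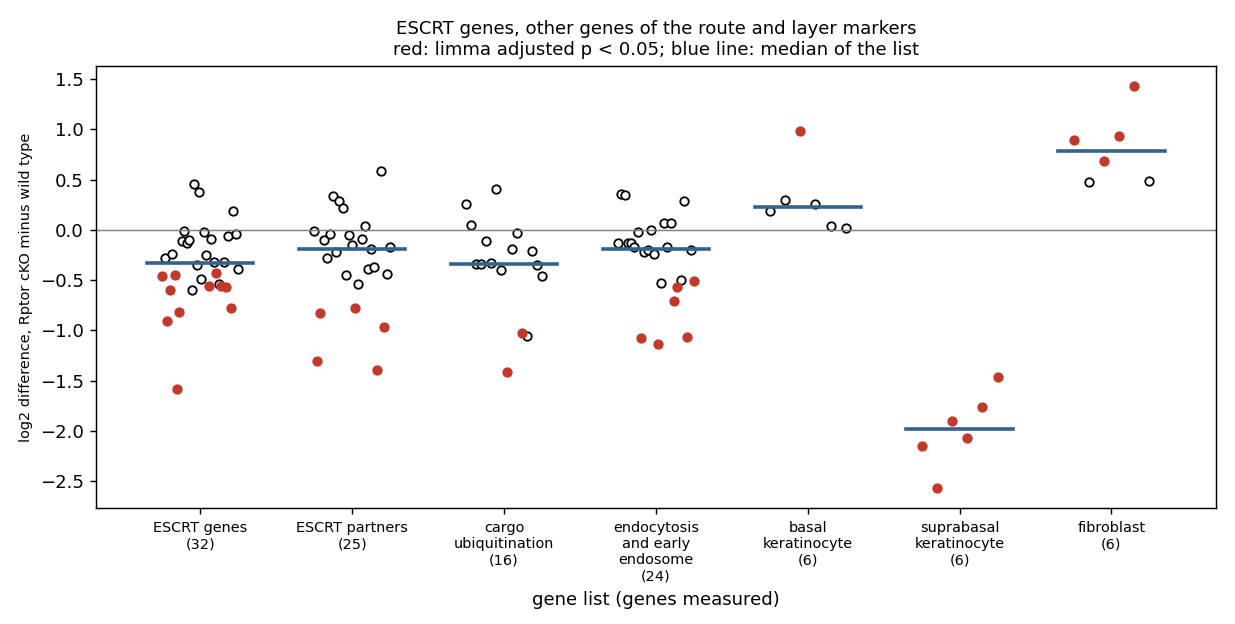
Log2 difference between Rptor cKO and wild type for each measured gene of the ESCRT list, 3 lists of the same route and 3 lists of cell markers, with the median as a blue line. The ESCRT median is -0.33, and the 6 suprabasal markers lie far lower, with a median of -1.99.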

How the data were processed

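The values deposited by the authors are log2 signals, 1 per probe set and array. RMA, Partek and build mm10 are named, without versions, per the submitters' processing notes. RMA usually includes quantile normalization, under which a like change of all RNA cannot be seen. Array medians were 4.06 to 4.21. Values ran from 1.34 to 14.04, which is a log2 scale. Columns were matched to samples by accession. No slide or scan date was at hand, so batches were not tested.

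Of 72688 probe sets, 6732 controls were left out and 30604 named 1 gene, giving 30142 genes with symbols updated by Entrez ID. Per gene the brightest probe set was fitted with limma 3.58.1 in R 4.3.3 (lmFit, eBayes, group as the sole term, two-sided), with Benjamini-Hochberg adjustment over all genes and a threshold of 0.05. SE is moderated for genes, and that of a difference of means for pair ratios. SD is over 3 arrays. The procedure was tested on simulated data. Python 3.11.15 and matplotlib 3.10.9 served for tables and plots. Positions are those of RefSeq GRCm38.p6, the mm10 assembly.

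The members, lists and pairs were chosen with earlier results of these data known. All members were named. Values on every array were given for those past the threshold and for the smallest p of a subcomplex with none, and for some others chosen after seeing them. Up to 3 genes a direction, by p, were named from each other list, with exceptions: the rest of the genes that fell there, the CBL genes and the deubiquitinases.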

Additional observations from a re-analysis of the deposited data

How the results depend on the processing

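Of the 32 genes, 24 stayed below 0 and 3 above 0 under all 13 alternatives, and 5 took both signs. Not all of the 13 could turn a sign. Leaving out dim probe sets, a mean-variance trend and no moderation alter the p but not the difference. Averaging probe sets could alter only Chmp6 among the members. The count of members that fell ran from 0 to 10 with 1 array left out and was 0 with sex as a term and 0 without moderation. It was 9 with array medians subtracted and with a mean-variance trend, 10 after quantile normalization, 11 with probe sets averaged and 12 without dim probe sets. Of all genes, 6.06%, 5.59%, 5.65%, 5.95% and 9.14% fell in these 5 fits, in that order. With 1 array left out the share of all genes that fell ran from 2.03% to 5.41%. The median ran from -0.40 to -0.28 with 1 array left out and was -0.42 with sex as a term. No member rose under any alternative. Vps28, Chmp2b, Chmp5 and Stambp kept their call under 10 of 13 alternatives, and the other 7 under 5 to 8. These counts include the fit with probe sets averaged, which is no check of these genes, since none of them has a second probe set. In the other lists, 2 to 13 fell and 0 to 3 rose with 1 array left out (3 without wild-type array 6), 2 fell with sex as a term and 0 without moderation, and 1 rose after quantile normalization and 1 without dim probe sets. Signs turned for those 5 members and for the ratio of Vps37a to Vps37c, which was 0.22 (SE 0.41) on all 6 arrays. Vps37b was 0.010 after quantile normalization, 0.046 with sex as a term and -0.21 to 0.094 with 1 array left out. Chmp7 was 0.032, 0.073 and -0.055 to 0.031 in the same fits. Vps4a was 0.015 with sex as a term and -0.090 to 0.013 with 1 array left out. Stam ran there from -0.12 to 0.062 and the ratio of Vps37a to Vps37c from -0.12 to 0.44. Chmp6 was 0.040 with its 2 probe sets averaged. The cause was not tested.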

Other observations

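2 probe sets that name a member were not used above. The second probe set of Chmp6 read 3.62, 3.68 and 3.83 in Rptor cKO and 3.43, 3.74 and 3.40 in wild type, and its means differed by 0.19. A probe set on the X chromosome names Chmp1b together with 2610002M06Rik, so signal of either could contribute. It read 5.04, 4.8 and 4.95 against 4.57, 4.84 and 5.07, a difference of 0.10, where the probe set of Chmp1b alone differed by -0.28.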
